A study of Mus musculus with 6 samples.

Results

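Bdnf and Adcyap1, which encode the secreted peptides BDNF and PACAP, were followed together with the receptor genes Ntrk2, Adcyap1r1 and Vipr2 in single cells of the mouse ventromedial hypothalamus. These 5 genes were chosen by name from the 21926 genes of the deposited count tables and read in wells with at least 500 genes with a count and under 25% of counts in mitochondrially encoded genes. The cells came from 3 female and 3 male mice at postnatal day 10. Every mouse carried the genotype Ai14f/+;Sf1-Cre, a Cre-dependent fluorescent reporter switched on by Cre from the Sf1 (Nr5a1) gene, so no mouse without the reporter or the Cre entered any comparison. A reporter of this kind also stays on in cells that used the Sf1 promoter only earlier in life. The cells were sorted by fluorescence after papain dissociation of roughly dissected hypothalamus, and each mouse filled 1 plate of 96 wells.

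Of 576 wells, 530 were kept and 516 of these were neurons, by counts of at least 3 of 12 neuronal genes that outweighed the counts of glial, vascular and ependymal genes. Each mouse gave 78 to 92 neurons and 184278 to 782366 neuronal counts. The median neuron held 6046 counts, and female 2 stood apart with a median of 2143, against 5536 to 7979.5 in the other mice. The label of the sort was checked against defining markers: Stmn2 had a count in 100% of neurons, Snap25 in 78.5%, Syt1 in 61.4%, the glutamatergic marker Slc17a6 in 78.9%, Fezf1 in 40.9%, Nr5a1 in 30.2% and Nkx2-1 in 11.4%, whereas Gad1 was found in 6.78% and Mog and C1qa in 0. Mog was the only gene at 0 in a list of 9 oligodendrocyte-lineage genes. At least 1 gene of that list had a count in 26.2% of neurons, at 67.6 to 86.8 CPM over females and 38.3 to 60.7 CPM over males. Any of Gad1, Gad2 and Slc32a1 had a count in 15.5% of neurons. Of the 516 neurons, 11 held at least 2 of the GABA-synthesis and transport genes Gad1, Gad2 and Slc32a1 without Slc17a6 (GABA-gene neurons) and 17 held Pomc at 1000 CPM or more (Pomc neurons, with CPM the counts of a gene scaled to a common library total), a marker of the neighbouring arcuate nucleus. A list of 7 arcuate genes had a count in 34.9% of neurons, at 85.7 to 1391 CPM by mouse, and a list of 8 ventromedial genes, Bdnf and Adcyap1 among them, in 85.1%, at 612 to 1089 CPM. The 96 well names are shared by all 6 plates as positions and do not mark shared cells.

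BDNF is a neurotrophin that is released in part with neuronal activity and signals through the receptor tyrosine kinase TrkB, the product of Ntrk2. A short form of TrkB without the kinase domain is made from the same gene and is abundant in astrocytes. PACAP is a neuropeptide of the secretin family that signals through the G protein-coupled receptors PAC1 (Adcyap1r1) and VPAC2 (Vipr2), both of which can raise cyclic AMP, and VPAC2 also binds VIP. In the ventromedial hypothalamus both peptides are known for their part in the control of feeding and energy balance.

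In the mm10 assembly (GENCODE vM21 annotation), Bdnf lies on chromosome 2 at 109674700 to 109727007 and Adcyap1 on chromosome 17 at 93199017 to 93206537. Ntrk2 lies on chromosome 13 at 58806569 to 59133970, Adcyap1r1 on chromosome 6 at 55451978 to 55501451 and Vipr2 on chromosome 12 at 116077726 to 116146261, all 5 on the plus strand. Bdnf, Ntrk2 and Vipr2 overlap annotated antisense genes on the other strand, and with the strand of counting not given in the sources used here, reads from such a pair cannot be told apart. The counts are per gene, so the kinase and the short form of TrkB, and the transcripts from the several Bdnf promoters, were not separated.

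The promoters of the pair of ligand genes are shown because they were the members found together in the same neurons. RefSeq (GRCm38.p6) lists 7 Bdnf start sites and 2 Adcyap1 start sites with a 250-base window before them. The windows were searched on both strands for the core site of the cyclic AMP response element, TGACG, its full form TGACGTCA, the SF-1 site CAAGGTCA and the AP-1 site TGANTCA, of which the full form contains the core site. The core site occurred in 1 of the 7 Bdnf windows and in both overlapping Adcyap1 windows, where it is the same site, against 17.8% of all 32851 windows. The 100 bases before those start sites are printed 5′ to 3′ on the plus strand, with the core site or its reverse complement in capitals. They lie at chr2:109692336-109692435 (Bdnf) and chr17:93198917-93199016 (Adcyap1), and neither holds an annotated exon.
Bdnf: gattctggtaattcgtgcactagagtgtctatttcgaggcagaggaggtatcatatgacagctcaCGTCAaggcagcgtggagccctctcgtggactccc
Adcyap1: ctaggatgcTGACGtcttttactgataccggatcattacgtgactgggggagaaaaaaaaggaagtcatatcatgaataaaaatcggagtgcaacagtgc
The site begins 35 bases before the start in Bdnf and 91 bases before it in Adcyap1. The full form and the SF-1 site were not matched in any window of the 5 genes, against 1.55% and 1.33% of all windows, and the AP-1 site was matched in 1 Bdnf window, against 6.75%. These matches describe letters only.

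Bdnf had a count in 248 of 516 neurons, or 48.1% (95% exact binomial interval 43.7 to 52.5%, which covers counting error only). Of those neurons 112 held 1 count and 136 held 2 or more, up to 9. By mouse, Bdnf was found in 41 of 78, 29 of 85 and 51 of 86 neurons of females 1 to 3, and in 43 of 92, 32 of 83 and 52 of 92 neurons of males 1 to 3. The lowest share was that of the shallow female 2. Summed over each mouse's neurons, the level was 192, 206 and 204 CPM in females 1 to 3 and 114, 105 and 203 CPM in males 1 to 3, so that male 3 lay among the females and the other males below them. The mean was 171 ± 47.9 CPM (SD, n = 6 mice).

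Bdnf was absent from the counts of all 28 GABA-gene and Pomc neurons, where 3 counts would be a share of 10.7%, a limit on neurons with a count and not on neurons with the RNA, although their median depth of 7024 counts was above that of the neurons overall. It was also at 0 in the 14 kept wells that were not neurons, but those held a median of only 888 counts. Among the neurons in which none of the 6 marker genes Nr5a1, Tac1, Rprm, Pdyn, Sox14 and Bcl11b had a count, 23.8% had Bdnf (63 neurons, median 4005 counts). Thinning to 2000 counts per neuron left out 41 shallower neurons, of which 37 were from female 2. The share was then 20.4% in neurons with none of the markers and 25.6% in all neurons. By mouse, the thinned share in neurons with none of the markers was 59.0% in female 2 (9 neurons) and 0 to 17.9% in the others.

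Adcyap1 had a count in 215 neurons, or 41.7% (37.4 to 46.1%), with 1 count in 95 of them and up to 8 counts in a neuron. The shares by mouse were 41 of 78, 22 of 85 and 36 of 86 in the females and 43 of 92, 31 of 83 and 42 of 92 in the males. The level was 197, 174 and 123 CPM in females 1 to 3 and 133, 114 and 139 CPM in males 1 to 3, with a mean of 147 ± 31.9 CPM (n = 6). The sexes overlapped, since female 3 lay below male 1 and male 3. Adcyap1 was found in 2 of the 28 GABA-gene and Pomc neurons, both of them Pomc neurons with 1 count. In neurons with none of the 6 markers its share was 12.7% as counted and 6.91% after thinning, against 21.5% after thinning in all neurons.

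Ntrk2, the BDNF receptor gene, had a count in 219 neurons, or 42.4% (38.1 to 46.8%), of which 157 held a single count. Its level was 148, 109 and 71.0 CPM in females 1 to 3 and 102, 84.2 and 82.6 CPM in males 1 to 3 (mean 99.5 ± 27.5 CPM, n = 6). Ntrk2 had a count in 14 of the 28 GABA-gene and Pomc neurons. Its share was 33.3% in the neurons with none of the markers, against 42.4% in all neurons, and 14.8% against 16.8% after thinning. Ntrk2 was also the one member found widely outside the neurons, in 9 of the 14 kept wells that were not neurons. Of all 14 wells, 8 had a count of at least 3 of 9 astrocyte genes, 6 of them from female 1. Ntrk2 had a count in 6 of these 8 wells, which together held 14 Ntrk2 counts of 8267, or 1693 CPM.

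Because astrocytes carry Ntrk2 RNA, the neurons were split by any count of the astrocyte list. Ntrk2 was present in 43 of 78 neurons with an astrocyte count and in 176 of 438 without (55.1% and 40.2%), at 114 and 91.4 CPM. In female 1, the mouse with the highest Ntrk2 level, the values were 12 of 16 and 28 of 62 neurons, at 217 and 130 CPM. The share was the higher with an astrocyte count in females 1 and 2 and males 1 and 3, and the lower in female 3 (6 of 17 against 27 of 69) and male 2 (2 of 8 against 34 of 75). The level was nearly equal in male 3 (83.0 and 82.5 CPM), lower with an astrocyte count in female 3 and male 2, and higher in the other mice. These shares were not thinned. All 9 astrocyte genes had a count somewhere among the neurons, and their summed level ranged from 33.8 to 51.0 CPM over females and 16.8 to 26.8 CPM over males, with the defining genes Aqp4 and Gja1 in 0.388% and 0.581% of neurons. The part of astrocyte RNA in the neuronal Ntrk2 counts was not tested.

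Adcyap1r1, which encodes the PACAP-selective receptor PAC1, was found in 130 neurons, or 25.2% (21.5 to 29.2%), and 105 of these held 1 count. Its level was 37.1, 81.4 and 42.2 CPM in females 1 to 3 and 53.7, 61.8 and 40.0 CPM in males 1 to 3 (mean 52.7 ± 16.9 CPM, n = 6), with the shallowest mouse, female 2, the highest. In contrast to the ligands, Adcyap1r1 was frequent in Pomc neurons: 12 of 17 had a count, or 70.6% (44.0 to 89.7%), against 115 of the 488 neurons outside the GABA-gene and Pomc groups, or 23.6% (19.9 to 27.6%). After thinning these shares were 24.4% and 8.73%. The Pomc neurons came from 4 mice, with 3 to 6 in each and none in females 1 and 2, too few per mouse for a test over mice.

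Vipr2, the gene of the VPAC2 receptor, had 1 count in each of 4 neurons, or 0.775% (0.212 to 1.97%), from female 3, male 1 and male 2. At this depth no level or difference could be given for it, and it entered no test.

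**Figure D1:**
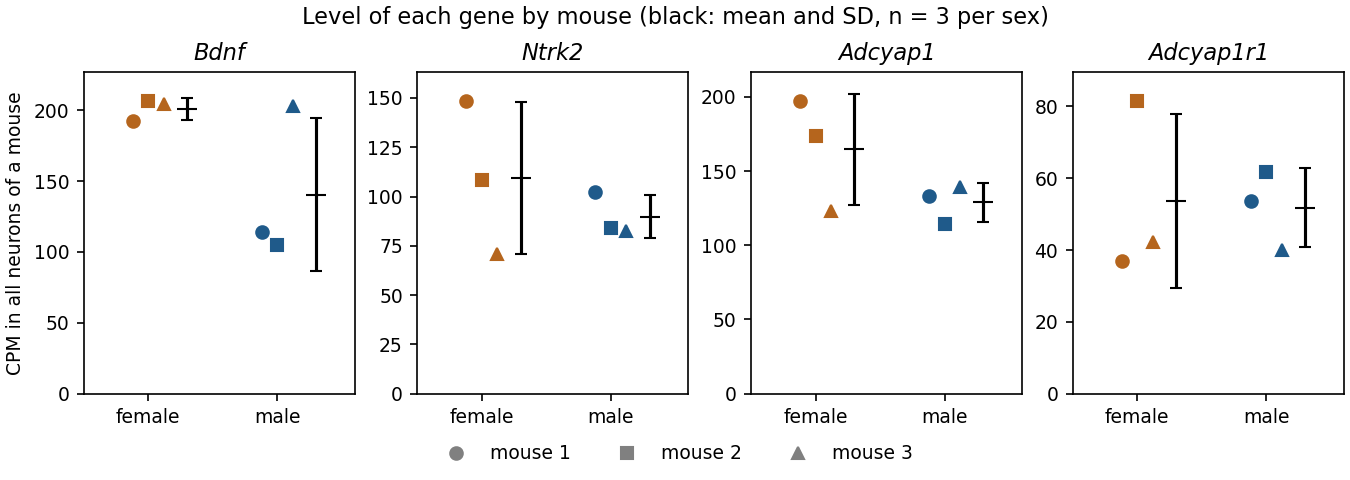
Level of Bdnf, Ntrk2, Adcyap1 and Adcyap1r1 in CPM (vertical axes, from 0, each gene on its own scale) in all neurons of each mouse, with females and males apart and symbols marking mouse 1, 2 and 3. Black bars are the mean and SD of 3 mice, and the sexes overlap for each of the 4 genes.

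The first question was how the ligands and receptors are spread over neurons that hold each marker of the ventromedial hypothalamus: Nr5a1 (the transcription factor SF-1), Tac1 (the substance P precursor), Rprm (reprimo), Pdyn (prodynorphin), and the transcription factors Sox14 and Bcl11b. Adcyap1 had a count in 60.0% of the 55 Bcl11b neurons (45.9 to 73.0%), 58.0% of the 193 Tac1 neurons, 55.1% of the 156 Nr5a1 neurons, 53.6% of the 194 Rprm neurons, 50.7% of the 223 Pdyn neurons and 43.9% of the 171 Sox14 neurons. Bdnf followed another order, with 60.9% in Nr5a1 neurons, 60.6% in Tac1, 56.1% in Pdyn, 54.6% in Rprm, 50.9% in Sox14 and 40.0% in Bcl11b neurons (27.0 to 54.1%). The exact intervals of neighbours in both orders overlapped, and a neuron can belong to several of these groups.

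Neurons with a marker count were often deeper than those without, so the shares were also compared after thinning to 2000 counts. Adcyap1 was then found in 38.7% of Bcl11b neurons against 19.4% of those without Bcl11b, 28.9% against 16.6% for Tac1, 28.7% against 18.1% for Nr5a1 and 27.3% against 17.9% for Rprm. For Sox14 the shares were 20.9% and 21.8%, and 23.2% of Pdyn neurons had Adcyap1. Bdnf after thinning was found in 29.6% of neurons with and 23.0% without Tac1, 28.7% and 24.1% for Nr5a1, 28.5% and 23.8% for Rprm, and 19.1% and 26.4% for Bcl11b. For Pdyn (25.1% and 26.0%) and Sox14 (25.3% and 25.8%) the share with the marker was then the lower, and Rprm lay above Pdyn. These thinned shares pool the neurons of all mice. Within mice, the Bdnf share was lower with Pdyn or Sox14 in females 1 and 2 only, and higher in the other mice. In female 2, with 8 Pdyn and 6 Sox14 neurons left, it was 20.7% against 41.7% for Pdyn and 0 against 43.6% for Sox14. For Ntrk2 the thinned shares were 18.4% with and 16.1% without Nr5a1, 14.8% and 18.1% for Tac1, and 22.7% and 16.1% for Bcl11b. For Adcyap1r1 they were 8.55% and 9.76% for Nr5a1, 6.91% and 10.7% for Sox14, and 6.70% and 9.70% for Bcl11b. Averaged over mice, Adcyap1r1 by Nr5a1 was in the other order, at 10.9% with and 10.0% without the marker. The same held for Adcyap1 by Sox14, at 23.3% and 22.1%.

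**Figure D2:**
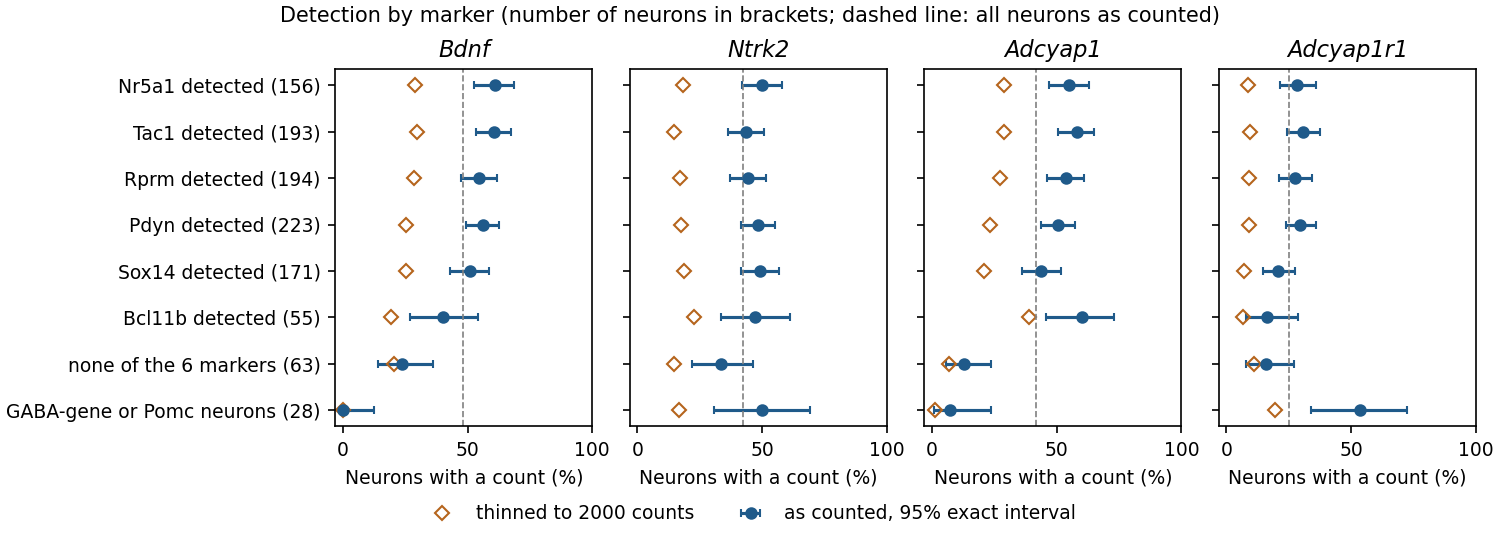
Share of neurons with at least 1 count of each gene (horizontal axis, percent) among neurons with each marker, with none of the 6 markers, and in GABA-gene or Pomc neurons, with the number of neurons in brackets. Filled circles are shares as counted with 95% exact binomial intervals, open diamonds are shares after thinning to 2000 counts, and the dashed line is the share in all neurons as counted, for example 41.7% for Adcyap1, which falls to 7.14% in GABA-gene or Pomc neurons.

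For a test over mice, the counts of each mouse's neurons with and without a marker were summed and compared with edgeR's quasi-likelihood test, with the mouse as a block. A call is a Benjamini-Hochberg adjusted p under 0.05 over all genes tested. Of the 23 pairs of a member and a marker that passed the filter on low counts, 3 were called, and all were Adcyap1, which was higher in neurons with Nr5a1, Tac1 or Bcl11b. Over all genes tested, 1.16% were called for Nr5a1, 0.702% for Tac1, 0.109% for Rprm, 1.89% for Pdyn, 0.637% for Sox14 and 2.08% for Bcl11b. Within one library fewer expressing cells and less RNA per cell cannot be told apart in such sums.

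In Nr5a1 neurons the Adcyap1 level was 250, 344 and 172 CPM in females 1 to 3 and 132, 170 and 182 CPM in males 1 to 3. In the neurons of the same mice without Nr5a1 it was 133, 149 and 101 CPM and 133, 77.6 and 117 CPM. The level was higher with Nr5a1 in 5 of 6 mice and the 2 values of male 1 were nearly equal. The means were 208 ± 76.9 and 118 ± 25.8 CPM (n = 6), with a log2 difference of 0.66 (SE 0.147, edgeR adjusted p = 0.00628). The call was lost with DESeq2 (adjusted p = 0.0747), among neurons with a Slc17a6 count (0.135), and when neurons with at least 2 Nr5a1 counts were compared with those at 0 (0.224).

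In Tac1 neurons Adcyap1 was higher in 6 of 6 mice, with 222, 290 and 136 CPM in the females and 170, 143 and 242 CPM in the males, against 173, 132 and 109 CPM and 106, 93.3 and 78.4 CPM without Tac1. Although the value with Tac1 was the higher in every mouse, the ranges of the groups overlapped. The means were 200 ± 61.0 and 115 ± 33.4 CPM, with a log2 difference of 0.80 (SE 0.152, edgeR adjusted p = 0.000889). The call was lost without male 3, the mouse with the largest rise (log2 0.57, adjusted p = 0.124), and with DESeq2 (0.0691).

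In the 55 Bcl11b neurons Adcyap1 stood at 473, 475 and 188 CPM in the females and 123, 243 and 205 CPM in the males, against 101 to 147 CPM in neurons without Bcl11b. Females 1 and 2 were far above the other mice, and male 1 was slightly below its own neurons without Bcl11b. The means were 284 ± 152 and 128 ± 16.2 CPM, with a log2 difference of 1.05 (SE 0.227, edgeR adjusted p = 0.00510, higher in 5 of 6 mice). Each mouse gave only 7 to 15 Bcl11b neurons. The call was lost without female 1 (log2 0.75, adjusted p = 0.229) and among neurons with a Slc17a6 count (adjusted p = 0.0520).

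Without the shallow female 2 all 3 differences were still called (edgeR adjusted p = 0.0313 for Nr5a1, 0.00381 for Tac1 and 0.0324 for Bcl11b). These 3 calls rest on the comparison within mice, and none of them was made when the mouse block was left out (edgeR adjusted p = 0.239 to 1.00), at log2 differences of 0.68 to 1.09. Sox14 and Bcl11b overlap: among the Bcl11b neurons, 30 had no Sox14 count and 25 had one, with Adcyap1 in 60.0% of each and in 41.1% of the 146 neurons with Sox14 alone. The direct comparison of neurons with Bcl11b alone and Sox14 alone could use 3 mice and 716 genes, of which 0.978% were called, and none of the members passed its filter on low counts.

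Bdnf did not pass the test for any marker. Its level in Bcl11b neurons was 187, 203 and 83.5 CPM in the females and 52.8, 81.0 and 93.0 CPM in the males, against 193, 206 and 215 CPM and 119, 107 and 211 CPM in the other neurons. The value with Bcl11b was the lower in 6 of 6 mice, though by little in females 1 and 2, and the log2 difference of -0.65 (SE 0.257) had an edgeR adjusted p of 0.264. Without the filter on low counts it was called (log2 -0.94, adjusted p = 0.0246). For the other markers the log2 differences of Bdnf were 0.33 (Nr5a1), 0.31 (Tac1), 0.23 (Rprm, higher in 6 of 6 mice), 0.17 (Pdyn) and 0.12 (Sox14), with edgeR adjusted p-values of 0.282 to 0.971. The Adcyap1 differences that were not called were 0.39 (Rprm), 0.17 (Pdyn) and -0.17 (Sox14).

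Ntrk2 was not called for any of the 6 markers and Adcyap1r1 for none of the 5 tested, since it did not pass the filter for Bcl11b. The Adcyap1r1 level in Sox14 neurons was 17.9, 47.2 and 36.5 CPM in the females and 43.3, 61.1 and 19.3 CPM in the males, against 49.3, 85.8 and 45.6 CPM and 57.4, 62.3 and 54.0 CPM without Sox14. The values with Sox14 rest on 41 counts in 171 neurons. In those neurons 3 counts would be 17.9 CPM in female 1, its own value, and 142 CPM in female 2, above its value. The Adcyap1r1 level was lower with Sox14 in 6 of 6 mice, and the log2 difference of -0.64 (SE 0.277) had an edgeR adjusted p of 0.614. For Ntrk2 the differences ran from -0.38 in Tac1 neurons (SE 0.181, adjusted p = 0.573, lower in 5 of 6 mice) to 0.51 in Bcl11b neurons (SE 0.275, adjusted p = 0.582, higher in 3 of 6 mice). The other differences of both receptors lay between -0.09 and 0.20. A missed threshold at these SEs does not show that the levels were alike.

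The second question was which of these genes occur in the same neuron. The number of neurons with both genes of a pair was compared with the number expected within each mouse from the shares of the 2 genes. Bdnf and Adcyap1 were found together in 138 neurons against 106 expected, a ratio of 1.30, and in more neurons than expected in 6 of 6 mice. The observed and expected numbers were 27 and 21.6, 9 and 7.51, and 29 and 21.3 in the females, and 29 and 20.1, 14 and 12, and 30 and 23.7 in the males. The ratio per mouse averaged 1.28 ± 0.102 (SD, n = 6) and ranged from 1.17 to 1.44, and the ratio over the 5 mice other than female 2 was 1.31.

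Deep neurons show more of every gene, so the pair was also counted after thinning to 2000 counts. The expected numbers are then averages over all draws: 33.0 neurons with both genes against 27.2 expected, a ratio of 1.21, above the expected number in 5 of 6 mice. Requiring at least 2 counts of each gene gave 54 neurons against 34.1, a ratio of 1.58, above the expected number in 5 of 6 mice. That count was not thinned, so it does not allow for depth. As counted, 55.6% of Bdnf neurons had Adcyap1, against 28.7% of the neurons without Bdnf, and 64.2% of Adcyap1 neurons had Bdnf. After thinning these shares were 27.1%, 19.6% and 32.3%.

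By mouse, 26.7% ± 10.3 of neurons (n = 6) had both ligands, 21.3% ± 3.96 Bdnf alone, 15.0% ± 4.24 Adcyap1 alone and 37.0% ± 8.01 neither. The share with both was lowest in the shallow female 2, at 10.6%, and in male 2, at 16.9%, and between 31.5% and 34.6% in the other mice. Median depths differed between these groups too, with 7886 counts in neurons with both ligands, 6104 and 6094 with one, and 4914 with neither.

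Ligand and receptor were found together at close to the number their shares give. Bdnf and Ntrk2 met in 112 neurons against 108 expected (ratio 1.04, above expectation in 4 of 6 mice, 0.973 after thinning), and Adcyap1 and Adcyap1r1 in 62 against 55.6 (1.12, in 4 of 6 mice, 1.05 after thinning). As counted, 45.2% of Bdnf neurons held Ntrk2 and 28.8% of Adcyap1 neurons held Adcyap1r1, against 39.9% and 22.6% of the neurons without the ligand. For Bdnf with Adcyap1r1 and for Ntrk2 with Adcyap1 the ratios were 1.02 each as counted and fell to 0.829 and 0.816 after thinning, on the other side of 1. Ntrk2 and Adcyap1r1 met in 54 neurons against 58.7 (0.920), and in female 2 no neuron held both. At 2 or more counts of each gene these ratios rest on few neurons: 2.76 for Ntrk2 and Adcyap1r1 (8 against 2.90), 0.576 for Bdnf and Adcyap1r1 (4 against 6.95), 1.34 for Ntrk2 and Adcyap1 (22 against 16.4), 1.18 for Bdnf and Ntrk2 and 1.21 for Adcyap1 and Adcyap1r1. Altogether 87 neurons had none of the 5 genes, 169 had 1, 155 had 2, 84 had 3, 20 had 4 and 1 neuron had all 5.

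**Figure D3:**
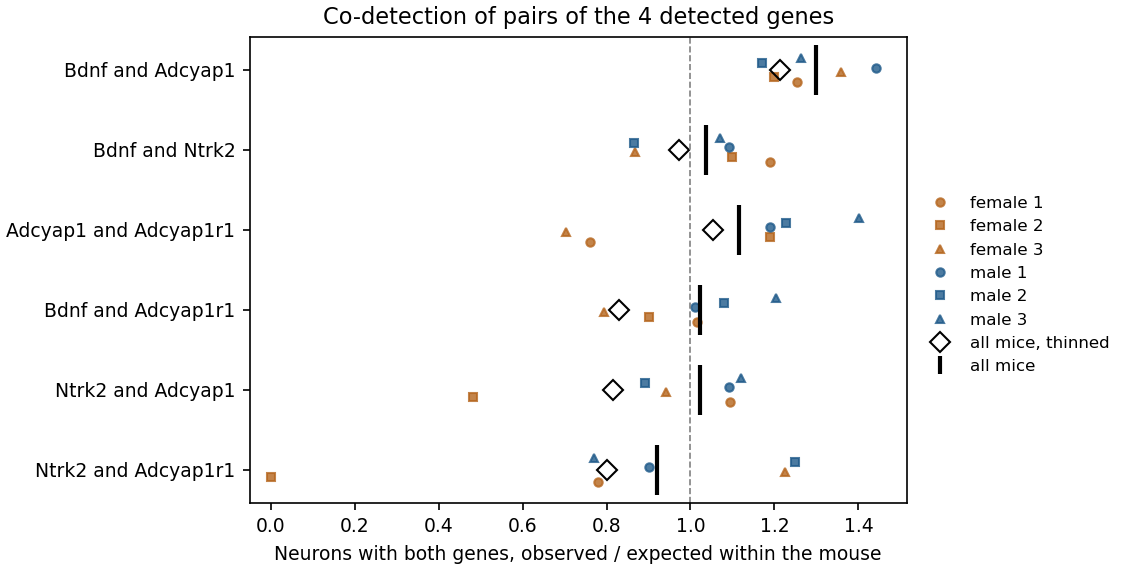
Number of neurons with both genes of a pair divided by the number expected from the 2 shares within the mouse (horizontal axis, 1 marks the expected number), for 6 pairs. Symbols are single mice, the black bar all mice (1.30 for Bdnf and Adcyap1, where every mouse lies above 1) and the open diamond all mice after thinning to 2000 counts (1.21).

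The levels were then compared between neurons with and without each member, by the same edgeR test over mice. In neurons with Bdnf, Adcyap1 was at 215, 202 and 173 CPM in the females and 183, 143 and 163 CPM in the males, against 173, 157 and 43.8 CPM and 72.9, 92.2 and 97.2 CPM in neurons without. It was higher in 6 of 6 mice, most of all in female 3 and male 1. The means were 180 ± 26.1 and 106 ± 49.5 CPM, with a log2 difference of 0.88 (SE 0.158, edgeR adjusted p = 4.36e-05). In this comparison 1.76% of the 4208 genes tested were called, and Adcyap1 was the 1 member called of 3 tested.

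The reverse comparison uses the same neurons and is not a separate line of evidence. In neurons with Adcyap1, Bdnf was at 237, 210 and 270 CPM in the females and 158, 107 and 227 CPM in the males, against 136, 205 and 142 CPM and 57.8, 103 and 177 CPM without. It was the higher value in 6 of 6 mice, though in female 2 and male 2 by a few CPM only. The means were 201 ± 59.2 and 137 ± 52.1 CPM, with a log2 difference of 0.66 (SE 0.145, edgeR adjusted p = 0.00885), and 1.2% of the 4587 genes tested were called. The call was lost without female 3 (0.0647), without male 1 (0.102), without the GABA-gene and Pomc neurons (0.0556), among neurons with a Slc17a6 count (0.107) and with DESeq2 (0.179), all adjusted p-values, while the log2 difference stayed between 0.49 and 0.78 over all 16 alternatives.

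**Figure D4:**
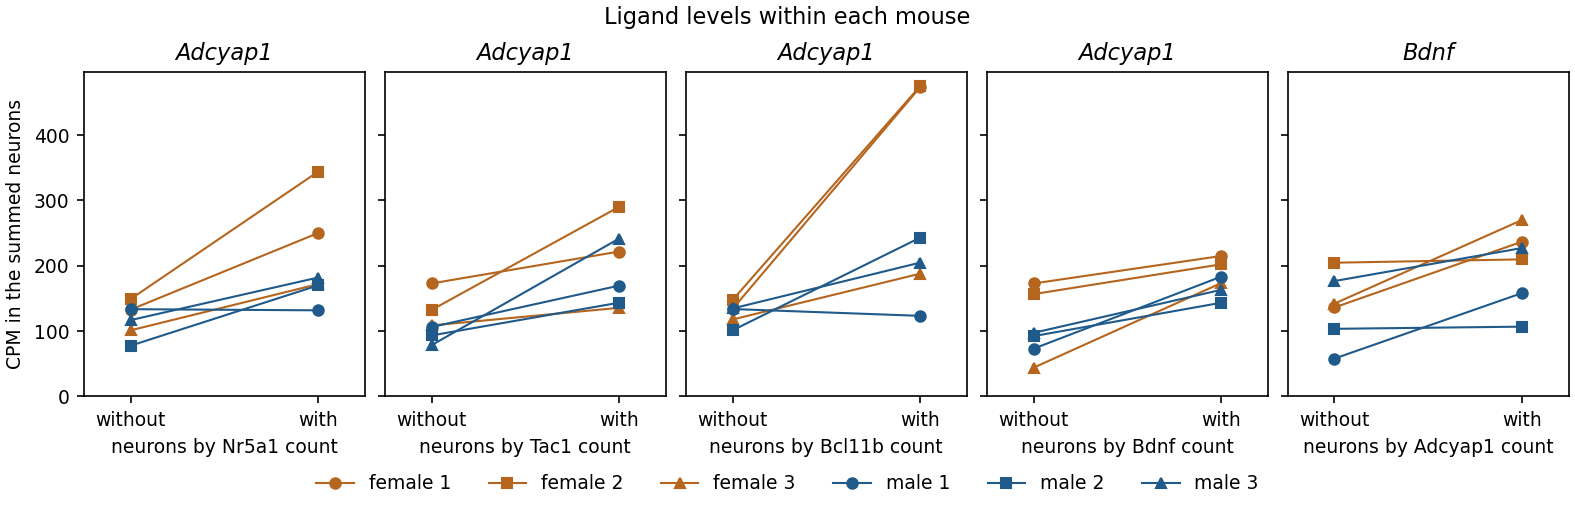
Level of Adcyap1 (first 4 panels) and Bdnf (last panel) in CPM in the summed neurons of a mouse without and with a count of the gene named under each panel. Each line is 1 mouse, and Adcyap1 was higher with Tac1 and with Bdnf in 6 of 6 mice and with Nr5a1 and Bcl11b in 5 of 6.

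Neurons with Bdnf differed from the others in 74 genes, Adcyap1 included, and the genes named are the 10 with the largest difference in each direction among those that moved the same way in 6 of 6 mice. On the higher side these were, beside Adcyap1, Chst8, Cbln1, Nefm, Vstm2a, Grhl1, H2-Q2, Fezf1, Gng13 and Gabra5. Cbln1, a secreted organiser of synapses, stood at 305 ± 76.5 CPM with Bdnf and 149 ± 55.8 CPM without (log2 1.14, edgeR adjusted p = 1.01e-10). Chst8, a sulfotransferase of protein-bound sugars, had a log2 difference of 1.32 (adjusted p = 4.93e-05). Fezf1, a transcription factor of the developing ventromedial nucleus, stood at 207 ± 74.9 against 110 ± 22.7 CPM (log2 0.94, adjusted p = 5.48e-07). Gabra5, a subunit of the GABA-A receptor, stood at 214 ± 83.5 against 116 ± 52.9 CPM (log2 0.87), and the neurofilament gene Nefm at 163 ± 48.7 against 78.1 ± 32.3 CPM (log2 1.07). H2-Q2 belongs to a family of near-identical genes, among which reads could be divided.

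On the lower side were Gal, Ifi27, Zbtb20, Nxph1, Ddah2, Lhfpl5, Pnn, Phyh, Pianp and Prmt2. Gal, which encodes the neuropeptide galanin, was at 11.4 ± 14.8 CPM with Bdnf and 141 ± 93.1 CPM without (log2 -2.93, edgeR adjusted p = 1.39e-12), and its 198 counts lay in 43 neurons. Zbtb20, a zinc finger transcription factor, was at 36.8 ± 16.5 against 91.5 ± 42.4 CPM (log2 -1.35, adjusted p = 9.93e-06). Without the 28 GABA-gene and Pomc neurons, which hold 6.20% of neuronal counts, 9 of the 10 higher genes and 4 of the 9 lower genes tested remained called, and Gal no longer passed the filter. Of its counts 9.60% lay in those neurons. DESeq2 called 9 of the 10 higher but only 3 of the 10 lower genes (Gal, Ifi27 and Zbtb20), and without the mouse block none of the 20 was called. Grhl1 on the higher side, and Lhfpl5, Pnn, Phyh, Pianp and Prmt2 on the lower, lost their calls under several alternatives, Pianp under 15 of 16. Among the markers, Tac1 (985 ± 295 against 582 ± 415 CPM, log2 1.01, adjusted p = 3.26e-08) and Rprm (256 ± 192 against 136 ± 84.3 CPM, log2 0.89, adjusted p = 1.82e-05) were higher with Bdnf. They were so in 4 and 5 of 6 mice. Both calls were lost without the mouse block, and that of Tac1 with DESeq2.

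Neurons with Adcyap1 were higher in Glipr1, Hs3st1, Krt18, Ddc, Nefm, Brinp3, Nrgn, Mt1, Cbln1 and Nectin3, chosen by the same rule. Ddc, the decarboxylase of aromatic amino acids, was at 137 ± 37.0 CPM with Adcyap1 and 67.8 ± 27.4 CPM without (log2 1.15, edgeR adjusted p = 0.000207). Nrgn, the calmodulin-binding protein neurogranin, was at 1226 ± 490 against 719 ± 359 CPM (log2 0.83, adjusted p = 1.19e-08). Hs3st1, which modifies heparan sulfate, stood apart between the groups without overlap, at 85.0 ± 28.0 against 36.4 ± 11.2 CPM (log2 1.28). Krt18, a keratin of intermediate filaments, rose by 1.20 on the log2 scale (adjusted p = 0.0103), and the metallothionein Mt1 by 0.80. The call of Krt18 was lost with DESeq2, without male 2 and without male 3, and that of Nectin3 under 10 of 16 alternatives. Without the mouse block none of the 10 was called.

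Lower with Adcyap1 were Tcf4, Sst, Ecel1, Tmem176b, Nxph1, Pnoc, Ddah2, Plcxd3, Cd63 and Mpzl1. The somatostatin gene Sst was at 383 ± 179 CPM with Adcyap1 and 1528 ± 833 CPM without (log2 -1.84, edgeR adjusted p = 6.12e-10), and 35.5% of its 2831 counts lay in the 28 GABA-gene and Pomc neurons. Without these neurons its log2 difference was -1.0 and it was still called. Among neurons with a Slc17a6 count the difference was 0.02, so the lower Sst level was not seen within the neurons with that count. Pnoc, the nociceptin precursor, had 28.6% of its counts in the 28 neurons and lost its call without them. Tcf4, a basic helix-loop-helix transcription factor, was at 3.41 ± 2.92 against 65.5 ± 23.1 CPM (log2 -3.77, edgeR adjusted p = 2.23e-08), with no overlap between the groups. Its 113 counts lay in 77 neurons. In the Adcyap1 neurons of male 1, which held the most counts of any mouse, 3 counts would be 6.87 CPM, above that mean. The size of the Tcf4 difference is therefore poorly measured. Tcf4 was not tested without the 28 neurons, since it then failed the filter on low counts. Tac1 (log2 1.11, adjusted p = 8.25e-06) and Rprm (log2 0.62, adjusted p = 0.0495) were higher with Adcyap1, each in 5 of 6 mice. Rprm lost its call under 11 of 16 alternatives, and Tac1 with DESeq2 and without the mouse block. Of the 10 lower genes, DESeq2 called 5 and the fit without the mouse block 2 (Tcf4 and Tmem176b), and Mpzl1 lost its call under 11 of 16 alternatives.

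Between neurons with and without Ntrk2, edgeR called 0 of 4270 genes (0%), with 190 genes at an unadjusted p under 0.05, and DESeq2 called 0 as well. Without the filter on low counts 7 genes were called, in all kept wells 1, at 2 or more Ntrk2 counts 1, and with a mouse left out 0 to 3. Adcyap1 was lower with Ntrk2 in 5 of 6 mice, at 114 ± 51.0 against 163 ± 28.0 CPM (log2 -0.38, edgeR adjusted p = 0.985). For Bdnf and Adcyap1r1 the log2 differences were -0.08 and -0.39. For neurons with Adcyap1r1, 0.179% of 4475 genes were called and no member was among them, with log2 differences of -0.19 for Bdnf, -0.13 for Ntrk2 and 0.24 for Adcyap1. Tac1 was the called marker there, at 990 ± 471 against 753 ± 254 CPM (log2 0.44, edgeR adjusted p = 0.00417), higher in 4 of 6 mice. Its call was lost with DESeq2, without the filter, without the mouse block, at 2 or more Adcyap1r1 counts and without female 3 or male 3. In neurons with Bdnf, Ntrk2 and Adcyap1r1 differed by log2 -0.10 and -0.29, and in neurons with Adcyap1 by -0.05 and 0.01, none of which passed.

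As a description over the 516 neurons, the genes whose log-scaled counts per neuron, centred within each mouse, were most like those of Bdnf among 8794 genes were Cbln1 (Pearson r = 0.32), Gabra5 (0.26), Fezf1 (0.24), Crip2 (0.23) and Nefl (0.22). Adcyap1 came in place 9, at 0.21. For Adcyap1 the closest genes were Nrgn (0.33), Ddc (0.28), Cbln1 (0.27), Mt1 (0.25) and Chst8 (0.25), followed by Tac1 in place 7 and Bdnf in place 17. Cbln1 stood near both ligands. Ntrk2 and Adcyap1r1 were unlike Bdnf, at -0.03 and -0.05. The neurons of a mouse share a plate, and depth differs between neurons.

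Other genes of the pathways were counted from lists that leave out the 5 members. The lists are short, and 0 to 2.08% of all genes were called in these comparisons, so counts near 0 say little about them. Of 37 neurotrophin ligand, receptor and signalling genes, 8 to 12 passed the filter in the single-marker and member comparisons and 0 were called in either direction. Of 27 PACAP, VIP and cyclic AMP signalling genes, 9 to 15 passed and 1 was called, in 1 comparison: Gnas, which encodes the stimulatory G protein alpha subunit, was higher in Bcl11b neurons (2745 ± 967 against 2248 ± 809 CPM, log2 0.30, edgeR adjusted p = 0.0418, 6 of 6 mice). This call held in 1 of 15 alternatives and was lost in 14, with the sign turned (log2 -0.02) without the filter on low counts. Of 19 regulators of activity-dependent Bdnf transcription, 1 to 5 passed and 0 were called. The median log2 differences of the neurotrophin list were 0.03 with Bdnf and 0.10 with Adcyap1, and those of the PACAP list -0.06 and -0.06, against -0.01 over all genes tested in both.

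The third question was whether females and males differed. Over 6769 genes edgeR called 0 (0%), with 166 at an unadjusted p under 0.05, and DESeq2 called 4, none of them a member. Without the filter on low counts edgeR called 24, among neurons with at least 3000 counts 1, and with a mouse left out 0 to 3. Females averaged 201 ± 7.62 CPM of Bdnf and males 140 ± 54.1 CPM (male minus female log2 -0.50, SE 0.296, n = 3 each). The means of Adcyap1 were 165 ± 37.6 and 129 ± 13.1 CPM (log2 -0.33, SE 0.270), those of Ntrk2 109 ± 38.6 and 89.7 ± 10.9 CPM (log2 -0.26) and those of Adcyap1r1 53.6 ± 24.2 and 51.8 ± 11 CPM (log2 0.06). Of the 4 members tested, 0 had levels that separated the sexes without overlap, against 8.54% of all genes tested. The Bdnf difference was larger than the SD of either sex, but male 3, at 203 CPM, lay within the female range. edgeR's adjusted p was 1.00 for each of the 4.

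The share of neurons with Adcyap1r1 was 18.1% ± 2.44 in females and 31.7% ± 6.46 in males, and the sexes did not overlap. The two-sided exact permutation p was 0.1, the smallest that 3 against 3 mice can give. Of the 8794 genes with a count in at least 5% of neurons, 18.8% had shares that did not overlap and 18.7% were higher in males, whose 3 plates had median depths of 5972 to 7979.5 counts per neuron against 2143 to 6737.5 in females. After thinning to 2000 counts the Adcyap1r1 shares were 9.25% in females and 10.0% in males, and the sexes overlapped. The shares of the other 4 members overlapped between the sexes as counted and after thinning. For Bdnf the thinned shares were 32.4% ± 5.14 and 20.8% ± 6.76 (two-sided exact permutation p = 0.2). Whether a marker difference itself differed by sex was tested with an interaction term, and 0 of the 23 pairs were called by edgeR, against 0.102% of genes for Nr5a1, 0.0186% for Tac1, 0.0715% for Rprm, 0.0394% for Pdyn, 0.0793% for Sox14 and 0.033% for Bcl11b. The smallest unadjusted p was 0.0416, for Adcyap1 in Bcl11b neurons (log2 -0.86, males less females, adjusted p = 1.00).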

How the data were processed

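Single wells of 6 mice were analysed from the deposited counts. Per the file headers and values these are whole-number counts per gene and well, which the authors did not normalize. HTSeq and mm10 are named in the submitters' processing notes. Versions, aligner, strand of counting and any use of molecular tags: not given in the sources used here. Members and gene lists were chosen with earlier results of these data known. Counts were summed per mouse and group, in mice with at least 5 neurons per group, and tested with edgeR 4.0.16 (R 4.3.3): TMM factors, filterByExpr, quasi-likelihood test, mouse as a block except between sexes, Benjamini-Hochberg adjustment over all genes tested. CPM used all counts of the summed wells. Shares were thinned with the exact chance of keeping no count. Doublets were not called. Exact tests and intervals used scipy 1.17.1. Named genes were at most 10 per direction by size, called, in the same direction in every mouse and at 20 CPM or more in a group. The fit was also run on simulated data with known changes. Those data held no differences between mice, so they cannot test the role of the mouse block. DESeq2 1.42.0, RLE factors, no filter, other cell filters, 2 counts, no block and leaving out each mouse were alternatives.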

Additional observations from a re-analysis of the deposited data

Results flagged for a closer look

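Among 36 sets of 6 within-mouse differences of a member (log2 of CPM plus 1, with against without a gene), 6 held 1 mouse far from the other 5, by a gap to its neighbour that exceeded Dixon's 95% critical value as a share of the range. At that level chance alone sets apart about 1 in 20 such sets. Female 2, the shallowest mouse, was that mouse in 4: Ntrk2 in Tac1 neurons (-2.70, others -0.83 to 0.23), Bdnf in Sox14 neurons (-2.24, others -0.17 to 0.92), Adcyap1r1 in Ntrk2 neurons (-6.69, others -1.08 to 0.28) and Ntrk2 in Adcyap1r1 neurons (-7.03, others -0.65 to 0.34). In the last pair no neuron of female 2 held both genes, so those sizes depend on the added 1. Female 3 stood apart for Adcyap1r1 in Bcl11b neurons (-5.55, others -1.12 to 0.01), where it had 7 such neurons, and male 3 for Bdnf in Rprm neurons (0.40, others 0.07 to 0.19).

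In the 14 kept wells that were not neurons, which entered the comparisons only in the alternative with all kept wells, Ntrk2 had a count in 64.3% (35.1 to 87.2%, exact interval) and Adcyap1r1 in 14.3% (1.78 to 42.8%). In the 46 wells left out for few genes, Ntrk2 had 9 counts, Adcyap1r1 had 1, and Bdnf, Adcyap1 and Vipr2 had 0.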

How the results depend on the processing

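The mouse block and the tool moved the calls further than a minimum depth of 3000 counts, which kept 3 and 2 calls. With 1 count in many neurons, a neuron without a count is not a neuron without the RNA, and Vipr2 was too rare for any test. The 3 calls of Adcyap1 by marker became 1 with DESeq2, 1 among Slc17a6-detected neurons, 1 with at least 2 marker counts against 0 (not run for Bcl11b, with too few neurons) and 0 without the mouse block, and were 2 to 3 when each mouse was left out. The 2 calls between Bdnf and Adcyap1 became 1 with DESeq2, 1 without GABA-gene and Pomc neurons, 1 among Slc17a6-detected neurons and 0 without the mouse block, and were 1 to 2 when each mouse was left out. Genes called with Bdnf were 74, and 23 with DESeq2, 120 without the low-count filter, 48 without GABA-gene and Pomc neurons, 41 among Slc17a6-detected neurons, 0 without the block, and 45 (without male 1) to 83 when each mouse was left out. Genes called with Adcyap1 were 55, and 23 with DESeq2, 92 without the filter, 29 among Slc17a6-detected neurons, 2 without the block, and 37 to 51 with mice left out. The cause was not tested. DESeq2 also called fewer genes by marker: 11 of 46 for Nr5a1, 7 of 31 for Tac1, 1 of 5 for Rprm, 27 of 79 for Pdyn, 2 of 26 for Sox14 and 21 of 48 for Bcl11b. Without the filter 305 genes were called for Bcl11b, 24 by sex and 7 with Ntrk2. The share of neurons by sex that did not overlap, 1 member as counted, was 0 after thinning, 0 at 2 or more counts and 1 to 2 with mice left out. The co-detection ratio of Bdnf and Adcyap1 was 1.58 at 2 or more counts and 1.27 to 1.32 with mice left out.

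For samples of the 2 sexes with the same number, deviations from the mean of the sex correlated at r = -0.14, -0.08 and 0.15 over 6211 genes. Samples with different numbers gave -0.10 to 0.20. With 3 mice per sex, these values cannot decide whether the number pairs the mice. The replicate block called 0 genes by sex, as did the fit without it.

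Sst, called at log2 -1.84, was at 0.023 in Slc17a6-detected neurons, and Gnas by Bcl11b, called at 0.30, was at -0.023 without the filter. The other values that changed sign were uncalled differences of members, those in log2 all within 0.40 of 0 in the main analysis. Without the filter these were Adcyap1r1 by Nr5a1 (-0.0044), Ntrk2 by Rprm (-0.045) and Ntrk2 by Pdyn (0.021). In neurons with at least 3000 counts they were Adcyap1r1 by Nr5a1 (-0.043), Ntrk2 by Adcyap1 (0.016) and Adcyap1r1 by Adcyap1 (-0.014). In all kept wells they were Ntrk2 by Nr5a1 (-0.00076), Adcyap1r1 by Nr5a1 (-0.0040), Ntrk2 by Rprm (-0.095) and Adcyap1r1 by Adcyap1 (-0.030). Without the replicate block they were Adcyap1r1 by Nr5a1 (-0.069), Ntrk2 by Pdyn (0.022) and Adcyap1r1 by Adcyap1 (-0.046). With at least 2 counts against 0 they were Adcyap1r1 by Rprm (-0.031), Adcyap1r1 by Ntrk2 (0.067) and Ntrk2 by Adcyap1r1 (0.63). Among Slc17a6-detected neurons Ntrk2 by Adcyap1 was 0.079, and with DESeq2 Adcyap1r1 by Adcyap1 was -0.0013. With each mouse left out in turn, Ntrk2 ranged from -0.52 to 0.072 by sex, -0.036 to 0.35 by Nr5a1, -0.17 to 0.12 by Rprm, -0.12 to 0.051 by Pdyn, -0.26 to 0.054 by Bdnf and -0.24 to 0.081 by Adcyap1. Adcyap1r1 ranged from -0.14 to 0.40 by sex, -0.34 to 0.35 by Nr5a1, -0.12 to 0.18 by Rprm, -0.24 to 0.13 by Pdyn and -0.16 to 0.20 by Adcyap1, and Bdnf from -0.19 to 0.080 by Ntrk2. Male minus female shares of neurons also changed sign: for Bdnf 3.99 points at 2 or more counts, 0.542 in all kept wells and -8.66 to 3.93 with mice left out, for Ntrk2 -0.498 after thinning, and for Adcyap1 -7.34 after thinning and -3.97 to 9.38 with mice left out.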
